A study of Mus musculus with 12 samples.

Results

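Esrrb, Nr5a2, Tfcp2l1, Prdm14, Tbx3, Zfp42 and Sall4 encode transcription factors of the naive pluripotent state, and their surroundings were examined in a merged list of accessible regions from mouse embryonic stem (ES) cells. A region was assigned to a gene when it overlapped the gene body or the 50 kb to either side by at least 1 bp (GRCm38, also called mm10, with GENCODE M21 genes). This gave 203 of the 170548 regions in the list for 7 of 21938 protein-coding genes, and no region was shared between them. The regions come from ATAC-seq, in which a transposase inserts sequencing adapters where chromatin is open. The libraries numbered 12 and made up 6 groups of 2 replicates. ZHBTc4 cells carry a tetracycline-repressed OCT4 transgene: both endogenous copies of Pou5f1 are inactivated, and dox shuts the transgene down. They were left untreated (OCT4 ON) or received dox at 1 µg/ml for 24 hr (OCT4 OFF). In 2TS22C cells endogenous Sox2 is inactivated and SOX2 comes from a transgene of the same kind, and the cells were left untreated (SOX2 ON) or received the same dose (SOX2 OFF), with both groups collected after 26 hr and after 40 hr. The cells of these 12 libraries grew in serum with LIF and inhibitors of GSK3 and of the MAP kinase pathway (S2iL). The untreated controls carried the transgene as well. Each factor was thus followed in 1 cell line.

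The deposited list merges the peaks of all groups and holds a chromosome, a start and an end for each region. It carries no height, read number or sample of origin, so that the depth of each library is unknown, replicates could not be compared and no difference between dox-treated and untreated cells can be read from it. The paper also used published ATAC-seq data of ZHBTc4 cells grown in serum and LIF. Whether peaks of those data entered the list cannot be read from it. What follows describes where open chromatin was found at the 7 genes in at least part of the pooled cells, without a p-value or a replicate error. RNA was not measured in these libraries, so that the naive state named for the genes could be examined only as open start sites. Pou5f1, Sox2, Nanog, Zfp42 and Esrrb each had a region over a start site, but so did the trophoblast genes Cdx2, Eomes and Elf5, the neuronal genes Neurod1 and Tubb3 and the muscle gene Myod1. An open start site in this list therefore did not separate ES cell genes from genes of other cell types.

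Naive pluripotency is the state of the cells of the pre-implantation epiblast, and ES cells hold it in culture with LIF and the inhibitors. OCT4 and SOX2 lie at the center of the transcription factor network of these cells and bind many enhancers together at a composite DNA element. LIF acts through STAT3, and inhibition of GSK3 relieves repression by TCF7L1. Between them these inputs reach genes such as Tfcp2l1, Esrrb, Tbx3 and the Klf genes. ESRRB and NR5A2 are orphan nuclear receptors that recognize almost the same DNA element. TFCP2L1 is a member of the CP2 family and PRDM14 represses FGF signaling and genes of DNA methylation. TBX3 is a T-box factor, ZFP42 (REX1) is a zinc finger protein derived from YY1 and a widely used marker of the naive state, and SALL4 is a zinc finger protein needed for ES cell proliferation. SALL4 and NR5A2 are not limited to the naive state.

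Open regions lay densely around 6 of the 7 genes. Tbx3 had 26 regions in a window of 114 kb, or 22.8 regions per 100 kb. Prdm14 had 25 regions (22 per 100 kb), and Sall4 also had 25 (20.9 per 100 kb). At Zfp42 there were 23 regions, or 20.6 per 100 kb. Esrrb, the longest of the genes, had the largest number, 48 regions in 261 kb, or 18.4 per 100 kb. Nr5a2 followed with 34 regions in 218 kb (15.6 per 100 kb), and Tfcp2l1 was the sparsest with 22 regions in 157 kb (14 per 100 kb). The order of the densities has no error attached, and neighbors such as Sall4 and Zfp42 differed by less than 1 region per 100 kb.

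**Figure D1:**
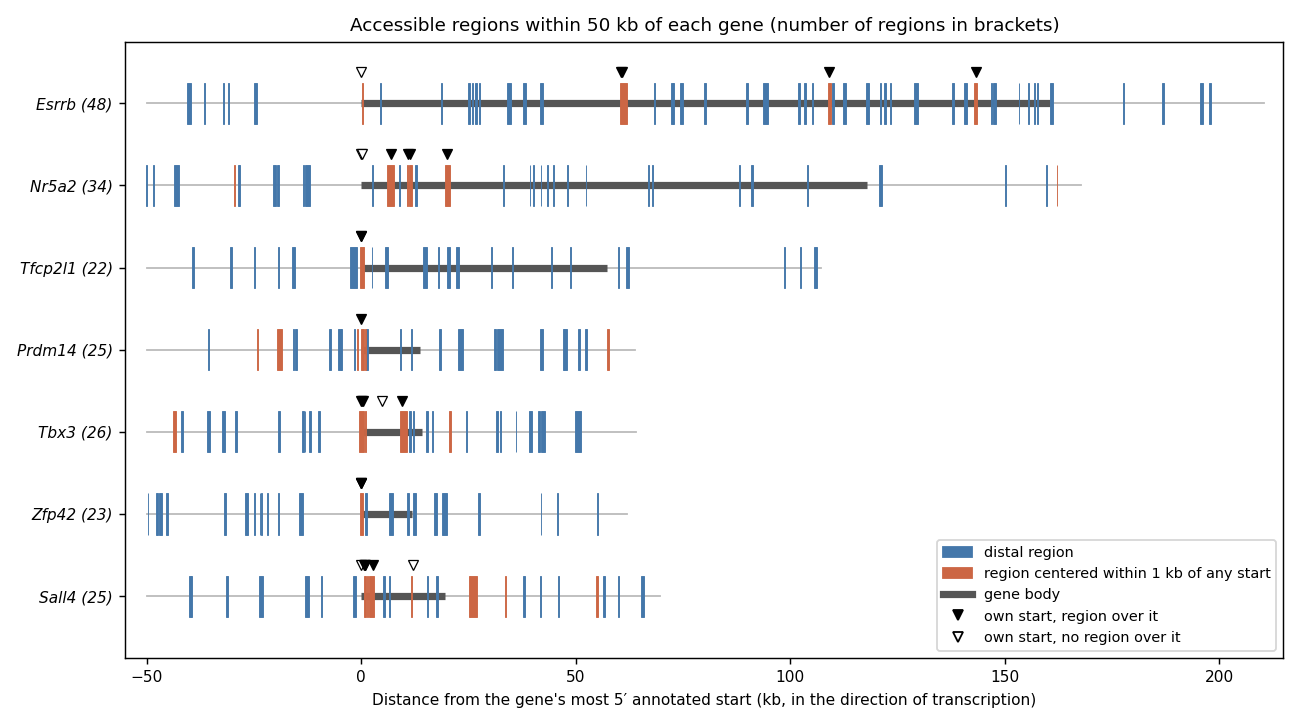
Accessible regions at each gene against the distance from its most 5′ annotated start (kb, in the direction of transcription). Colored bars are regions (blue, distal; orange, centered within 1 kb of any annotated start; narrow ones are drawn slightly wider than to scale), thick grey lines are gene bodies, filled triangles are starts of the gene with a region over them and open triangles are starts without one. Esrrb has 38 of its 48 regions in the gene body, whereas the regions of the 3 shortest genes lie mostly in the flanks.

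The density of a window fell with the length of its gene, from a median of 12.5 regions per 100 kb for genes as long as Zfp42, the shortest of the 7, to 8.17 for genes as long as Esrrb, so each gene was set beside autosomal protein-coding genes of like length, for which the shorter of the pair measured at least 0.8 times the longer. Tbx3 lay at a percentile of 96.5 among 2476 genes with a median of 12.3 regions per 100 kb. Esrrb lay at 95.8 among 783 genes, of which 33 were denser. The percentile was 94.8 for Prdm14, 93.3 for Sall4, 91.1 for Zfp42 and 87.5 for Nr5a2. Tfcp2l1, at 69.1, was the one gene inside the middle range of its length class. The median of the 7 percentiles was 93.3.

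**Figure D2:**
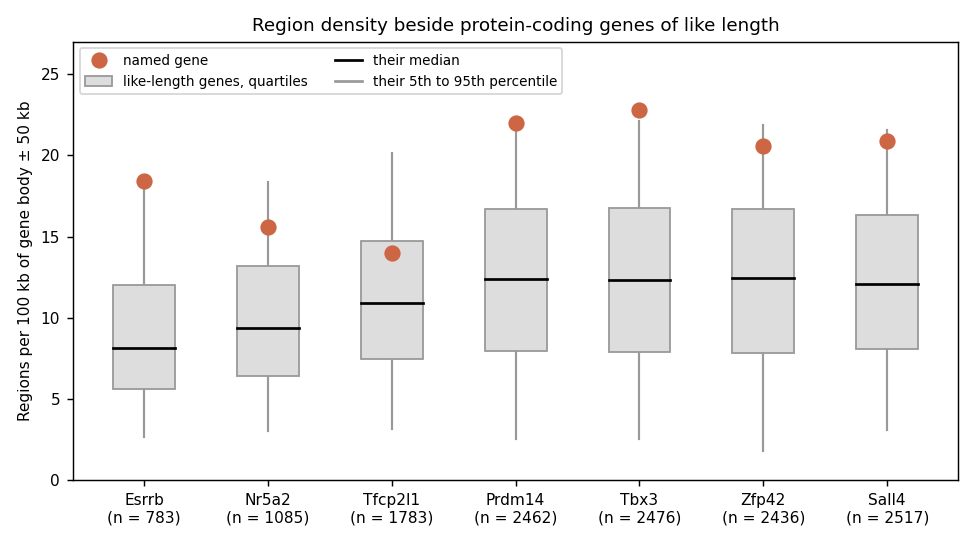
Regions per 100 kb of gene body and 50 kb flanks for each gene (orange points) beside autosomal protein-coding genes of like length (n in brackets; grey box, quartiles; black line, median; grey line, 5th to 95th percentile). Tbx3 and Esrrb lie above the grey lines of their length classes, and Tfcp2l1 lies inside its box.

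Most of these regions were distal, that is, centered more than 1 kb from any annotated start. With distal regions alone the percentiles ran from 86.4 for Nr5a2 to 98.9 for Zfp42, and that of Tfcp2l1 rose to 87.2. Annotated starts were few in these windows. Zfp42 had 3 in its window against a median of 17 for genes of like length, Prdm14 had 5 against 17, and Esrrb and Tfcp2l1 had 6 each against 13 and 15. Sall4, with 16 starts, equalled the median of its class. The windows of 4 genes (Esrrb, Nr5a2, Tbx3 and Zfp42) held no other protein-coding gene, as was the case for 4.84% of the genes of like length for Zfp42 and 19.7% for Esrrb. Other protein-coding genes reached into the windows of Tfcp2l1 (Clasp1, 5 regions), Prdm14 (Ncoa2, 5 regions) and Sall4 (Atp9a, 9 regions), and those regions may belong to either gene.

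Regions were counted separately in the gene bodies and in the flanks. The bodies held 91 of the regions, the upstream flanks 60 and the downstream flanks 52. Sall4 had 40.8 regions per 100 kb of gene body, a percentile of 99.1 for its length, but 17.0 per 100 kb of flank, a percentile of 79.5. Esrrb had 23.7 per 100 kb of body (98.6) and 10.0 per 100 kb of flank (60.0), so that its density came from the gene itself. The same held at a lower level for Tfcp2l1, with 19.2 per 100 kb of body (87) and 11.0 per 100 kb of flank (50.4). Tbx3 and Prdm14 were dense in both parts, with flank percentiles of 93.2 and 90.5.

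The median width of the 203 regions was 371 bp, beside 379 bp for the whole list. The regions in windows of protein-coding genes had a median of 395 bp. The 31 regions centered within 1 kb of any annotated start had a lower median width than such regions elsewhere, 596 bp beside 757 bp in the list and 788 bp in those windows. Some of the 31 lay nearest to a start of another gene, such as Atp9a (205 to 1509 bp) or Ncoa2 (158 and 1110 bp). Their median therefore does not describe the starts of the 7 genes alone. The 14 regions over a start of the 7 genes ran from 185 to 1641 bp. The 172 distal regions were about as wide as others, with a median of 350.5 bp beside 344 bp and 351 bp. A width of at least 1 kb was reached by 18 of the 203 regions (8.87%), spread over all 7 genes, beside 9.83% of the list and 11.0% of the regions in windows of protein-coding genes. Of these 18 regions, 9 were distal and 9 were centered within 1 kb of a start. The share of the window covered by regions set the genes less far apart from others than the number of regions did, with a median percentile of 78.2. This percentile was 95.5 for Esrrb (9.0% of the window covered), 92.1 for Tbx3 (12.0%) and 84.6 for Prdm14 (10.9%), and it lay between 66.6 and 78.2 for the other 4 genes. Nr5a2 had the narrowest regions, with a median of 256.5 bp and a percentile of 5.26 among genes of its length, while Esrrb, with a median of 451.5 bp, lay at 75.3.

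**Figure D3:**
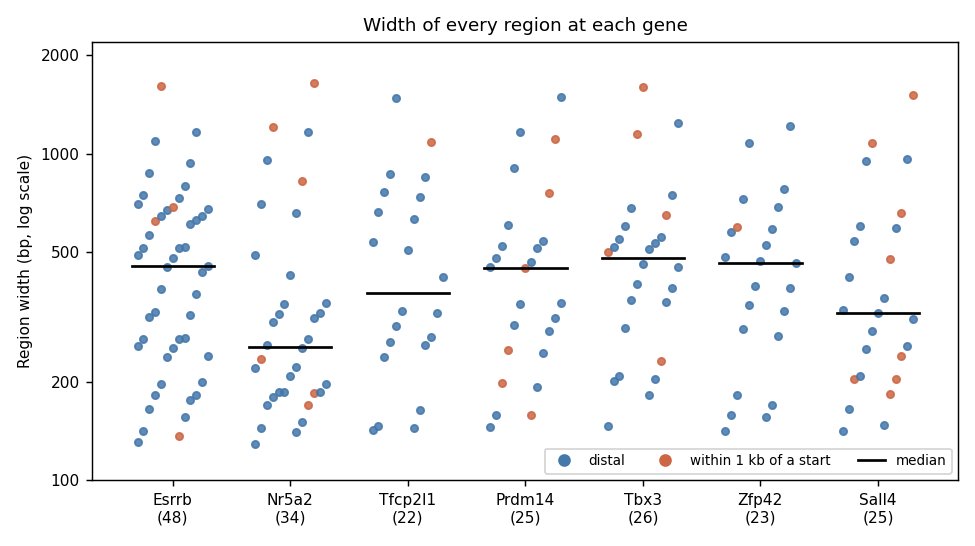
Width of every region at each gene (bp, log scale; blue, distal; orange, centered within 1 kb of an annotated start; black line, median; number of regions in brackets). The medians run from 256.5 bp at Nr5a2 to 478.5 bp at Tbx3, and each gene has at least 2 regions of 1 kb or more.

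Of the 203 regions 172 were distal (84.7%, 95% Wilson interval 79.1 to 89.0, counting error only), and the same held for 82.7% of the list. By gene the share ran from 68.0% at Sall4, whose window contains starts of Atp9a, to 95.7% at Zfp42 and 95.5% at Tfcp2l1. Sequence annotated as repeats made up most of 13 regions (6.40%), beside 16.8% of all regions and 13.6% of those in windows of protein-coding genes.

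Start sites were examined next. The 7 genes have 28 annotated starts, and 22 of them lay under 14 regions. Each of the 7 genes had a region over at least 1 start of its own, as did 68.9% of all protein-coding genes. The most 5′ start, however, was not always the open one. Of the 4 genes with starts more than 1 kb apart (Esrrb, Nr5a2, Tbx3 and Sall4), 3 had no region over the first start and a region over a later one, beside 11.4% of 12679 such protein-coding genes. Nr5a2 was the one gene with no region within 1 kb of the first start, beside 5.58% of the same genes. At Esrrb a region began 252 bp from the first start. The first start of Sall4 is that of a transcript not annotated as protein-coding. Its next start, 0.742 kb into the gene and of protein-coding transcripts, had a region over it. Which of the starts was in use cannot be read from accessibility.

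Starts with and without a region differed in CpG content across the genome. In the 1 kb around the start, the ratio of observed to expected CpG had a median of 0.720 at the 49323 starts of protein-coding genes with a region and of 0.221 at the 44190 starts without one. At the 7 genes the 22 starts with a region ran from 0.109 to 0.939 with a median of 0.597, and the 6 without ran from 0.0905 to 0.604 with a median of 0.344, so that the ranges overlapped. Among the CpG-poor starts with a region were the last start of Esrrb, with a ratio of 0.109 and a region of 620 bp, and the last start of Nr5a2, with a ratio of 0.256 and a region of 1209 bp. Neither is the start of a transcript annotated as protein-coding. Esrrb-205 is annotated as a processed transcript and Nr5a2-204 as a retained intron.

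Short DNA elements that these and related factors are known to recognize were searched on both strands of every region, with no mismatch except for the composite. They were the octamer bound by OCT4 (ATGCAAAT), the SOX element (CATTGTT), the extended nuclear receptor half-site of ESRRB and NR5A2 (TCAAGGTCA), the PRDM14 element (GGTCTCTAA), a T-box element (AGGTGTGA), a YY1-type element for ZFP42 (AANATGGCG), the CCAG pair of TFCP2L1, which is CCAG and CCAG with 6 bases between them, the KLF element (CCACACCC) and the STAT element (TTCCNGGAA). The composite OCT4::SOX2 element was taken as the SOX element followed directly by the octamer, with at most 2 mismatches, so that it overlaps the single elements. A match is a description of the sequence, and no binding was measured. At least 1 element was found in 62 of the 203 regions (30.5%, 24.6 to 37.2), and in 30.3% of all regions.

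Single elements were close to their share of the list in most cases. The SOX element was in 13 regions (6.40%, list 8.03%), the CCAG pair in 16 (7.88%, list 6.74%), the T-box element in 5 (2.46%, list 2.53%), the STAT element in 5 (2.46%, list 1.97%) and the octamer in 5 (2.46%, list 3.72%). The composite was in 1 region (0.493%, list 0.405%) and the PRDM14 element in 0 (Wilson upper limit 1.86%, and 1.48% by the limit of 3 counts, list 0.345%). For each of these the 95% Wilson interval held the share of the list. The KLF element was in 20 regions (9.85%, 6.47 to 14.7), spread over all 7 genes, and in 7.3% of the list. The YY1-type element was in 2 regions (0.985%, 0.271 to 3.52) and in 3.13% of the list, and these 2 intervals held the share of the list as well. The composite search was strict and matched only 690 of the 170548 regions of the list. The paper's motif search reports the canonical motif at far more loci that depended on OCT4 or SOX2. The low share of the composite therefore does not show that this motif is rare. With at most 3 mismatches it was in 1.97% of the regions at the genes and in 2.81% of the list.

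Over all bases, the nuclear receptor half-site was the only element of the 10 whose interval did not hold the share of the list. The intervals were not adjusted for the number of elements searched. The half-site was in 10 regions (4.93%, 2.70 to 8.83) of Esrrb, Prdm14, Nr5a2, Tfcp2l1 and Zfp42, and in 2.4% of the list. Per kb of region there were 0.114 matches at the 7 genes and 0.0503 in the whole list. Repeats hold many of these matches, since 6 of the 11 matches at the genes and 48.4% of those in the list touched soft-masked bases. The search outside masked bases was added after the data were seen. It found the half-site in 5 regions at Esrrb and Prdm14 (2.46%), against 1.3% of the list. The interval for 5 of 203 regions, 1.06 to 5.64, held the share of the list. Masked bases also held 70.6% of the YY1-type matches of the list, and outside them the shares were 0.985% at the genes and 1.27% in the list. For the KLF element, 18 regions held a match outside masked bases (8.87%, 5.68 to 13.6), and 5.16% of the list did, a share below the interval. These are shares of whole regions and were not matched for the amount of unmasked sequence. Regions made up mostly of repeats were fewer at the 7 genes (6.40%, list 16.8%). Outside masked bases at least 1 of the elements was found in 25.1% of the regions at the genes and in 22.2% of the list. Matches to 3 or more of the elements were found in 3 regions (1.48%), at Esrrb and Nr5a2, and in 0.675% of the list.

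**Figure D4:**
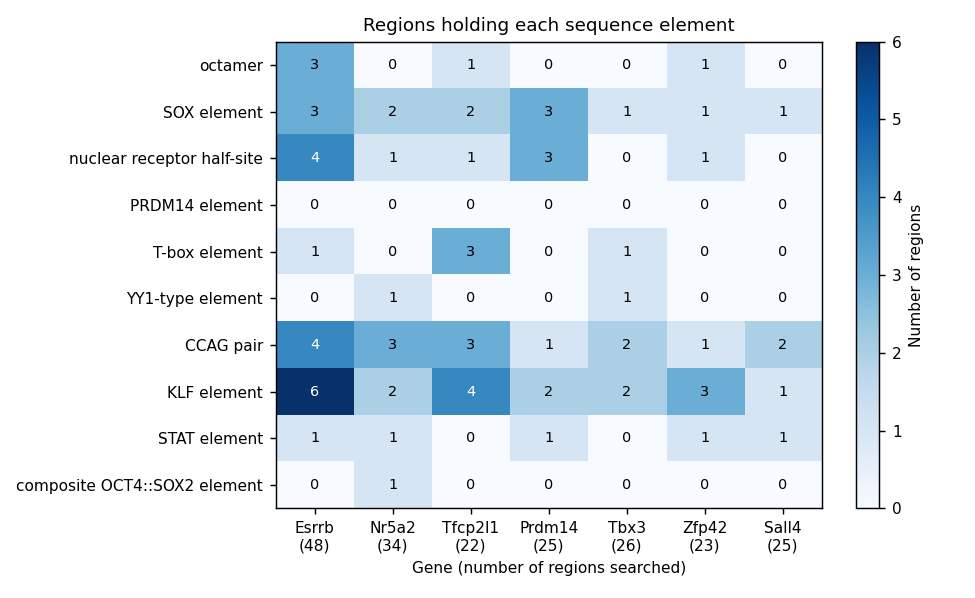
Number of regions of each gene that hold at least 1 match to each element (color and digits; number of regions searched in brackets). The KLF element is found at every gene, the octamer at Esrrb, Tfcp2l1 and Zfp42, and the half-site mainly at Esrrb (4 regions) and Prdm14 (3 regions).

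Esrrb (ENSMUSG00000021255.17) spans chr12:86361117-86521628 (plus strand). Its body held 38 regions, of which 34 lay in introns and 4 touched exons of the longest transcript, and the flanks held 5 each. Positions are given as the distance of the region's center from the most 5′ start, negative upstream. Intron 1 alone held 20 regions of 142 to 1613 bp. The first start, that of Esrrb-204, had no region over it, and a region of 137 bp began 252 bp further on. The widest region, 1613 bp at chr12:86421367-86422979, covered the starts of Esrrb-201, Esrrb-202 and Esrrb-203 60.5 kb and 60.8 kb into the gene. Further regions covered the starts at 109 kb (687 bp) and 143 kb (620 bp), and the widest distal one was 1161 bp at 94.3 kb in intron 1. The octamer was found in 3 distal regions of introns 2 and 5, and the half-site in 4 regions. Sequences are printed on the strand of the gene with matches in capitals. The first is from intron 2 (chr12:86470973-86471132), where the octamer stands in a composite with 3 mismatches and in soft-masked bases, and the second is from intron 1 (chr12:86386007-86386166), where a distal region of 491 bp, which held 3 kinds of elements, has a half-site, in reverse orientation, outside masked bases.
Esrrb octamer: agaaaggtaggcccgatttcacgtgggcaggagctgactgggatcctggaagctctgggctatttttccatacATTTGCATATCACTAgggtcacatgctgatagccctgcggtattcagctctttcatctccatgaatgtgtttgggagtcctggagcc
Esrrb half-site: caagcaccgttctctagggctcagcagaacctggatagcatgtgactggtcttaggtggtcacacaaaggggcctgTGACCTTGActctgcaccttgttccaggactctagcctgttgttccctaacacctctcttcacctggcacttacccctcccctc

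Nr5a2 (ENSMUSG00000026398.14) spans chr1:136842571-136960448 (minus strand). It had 10 regions in the upstream flank, 20 in the body and 4 downstream. Neither of the first 2 starts, of Nr5a2-201 and Nr5a2-203, lay under a region, and the nearest region began 2571 bp from the first of them. The widest region, 1641 bp at chr1:136952737-136954377, covered the start of Nr5a2-205, 6.82 kb into the gene, and regions of 185, 823 and 1209 bp covered the last 3 starts, at 10.9, 11.3 and 19.9 kb. Intron 6 held 10 regions, all narrower than the median of the list, with widths of 129 to 314 bp. The widest distal region was 1161 bp at −43.1 kb. The region of 1209 bp (chr1:136939794-136941002) overlapped exon 6 and was the one region of the 203 with a composite of at most 2 mismatches. Beside the composite it held 2 SOX elements and a YY1-type element. The composite lies in the coding part of exon 6, and the 160 bp around it (chr1:136940699-136940858) are printed because it is the single match of this kind at the 7 genes.
Nr5a2 composite: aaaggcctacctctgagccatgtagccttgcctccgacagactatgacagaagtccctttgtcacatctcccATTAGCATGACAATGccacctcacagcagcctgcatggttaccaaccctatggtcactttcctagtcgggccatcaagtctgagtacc

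Tfcp2l1 (ENSMUSG00000026380.10) spans chr1:118627945-118685168 (plus strand). A region of 1085 bp at chr1:118627589-118628673 covered both annotated starts, which are 1 bp apart. The widest region was a distal one of 1477 bp at −1.81 kb (chr1:118625393-118626869), wider than 99.3% of the distal regions of the list. In the body 10 of the 11 regions lay in introns, 5 of them in intron 2 with widths of 265 to 864 bp, and downstream of the gene 36.3 kb had no region at all. In this window 5 of the regions, all upstream, overlapped Clasp1. The T-box element was found in 3 regions, more than at any other of the genes, and the octamer in 1, the wide upstream region, from which 120 bp are printed (chr1:118625500-118625619).
Tfcp2l1 octamer: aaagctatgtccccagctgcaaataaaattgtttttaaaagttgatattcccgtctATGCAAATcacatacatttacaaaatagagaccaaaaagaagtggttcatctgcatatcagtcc

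Prdm14 (ENSMUSG00000042414.7) spans chr1:13113457-13127163 (minus strand), with 1 annotated start under a region of 758 bp (chr1:13126536-13127293). The regions were most crowded close to this start, with 8 centered in the 10 kb between −8.60 and 1.40 kb. Downstream of the gene lay its widest region, a distal one of 1486 bp at 32.4 kb (chr1:13094062-13095547), and another of 1163 bp at 23.1 kb. A region of 1110 bp at −19.1 kb lay in Ncoa2, within 334 bp of a start of that gene. The half-site was found in 3 regions. One of them, a narrow upstream region of 159 bp at −4.58 kb (chr1:13131663-13131821), is printed whole, since its half-site lies outside masked bases.
Prdm14 half-site: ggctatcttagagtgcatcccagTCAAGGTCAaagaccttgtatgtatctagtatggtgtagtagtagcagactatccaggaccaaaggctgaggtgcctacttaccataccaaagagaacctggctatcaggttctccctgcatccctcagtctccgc

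Tbx3 (ENSMUSG00000018604.18) spans chr5:119670669-119684724 (plus strand) in a stretch without other protein-coding genes, with the non-coding Tbx3os1 and Tbx3os2 beside it. Its regions were spread over the window, with 10 upstream, 5 in the body and 11 downstream, and the longest stretch without one was 12.9 kb. A region of 1151 bp (chr5:119670175-119671325) covered the first 3 starts. The widest region, 1601 bp at chr5:119679751-119681351, covered the last start, that of Tbx3-205, 9.58 kb into the gene, and overlapped exon 6 of the longest transcript. Tbx3-204 had no region over its start, and the nearest was 3718 bp away. The widest distal region was 1245 bp at 50.5 kb. Neither the octamer nor the half-site was found at Tbx3. A distal region of 602 bp at −9.84 kb held a YY1-type element, in reverse orientation, 4 bases ahead of a CCAG pair, and 120 bp of it are printed (chr5:119660686-119660805).
Tbx3 YY1 and CCAG pair: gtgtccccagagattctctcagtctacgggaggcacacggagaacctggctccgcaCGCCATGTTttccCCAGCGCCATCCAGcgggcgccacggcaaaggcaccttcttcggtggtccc

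Zfp42 (ENSMUSG00000051176.6) spans chr8:43295063-43306980 (minus strand). No other protein-coding gene reaches into its window, and no start of another gene lies there. One region of 596 bp (chr8:43306688-43307283) covered its 3 starts, which lie within 0.044 kb. The other 22 regions were distal, 12 of them in the upstream flank, where 6 were centered in the 10 kb from −29.3 to −19.3 kb. Regions of 1075 bp at −14.1 kb and 1219 bp at 19.4 kb were the widest. Its promoter was read as well. In the windows of 300 bp that RefSeq gives around gene starts (250 bp before and 50 bp after), the octamer was found in 1.74% of 32851 and the KLF element in 3.56%, and that of Zfp42 held both. The windows of Esrrb, Nr5a2 and Tfcp2l1 held no listed element, and no window was found there for Prdm14, Tbx3 and Sall4. The 250 bp before the first start (chr8:43306981-43307230) are printed, with the octamer, in reverse orientation, as part of a composite with 3 mismatches.
Zfp42 upstream: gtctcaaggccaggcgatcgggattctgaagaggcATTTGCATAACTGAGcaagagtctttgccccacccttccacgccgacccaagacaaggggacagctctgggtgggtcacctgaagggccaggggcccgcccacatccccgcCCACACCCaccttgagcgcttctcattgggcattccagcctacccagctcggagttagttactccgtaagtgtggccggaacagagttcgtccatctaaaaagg

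Sall4 (ENSMUSG00000027547.17) spans chr2:168748332-168767943 (minus strand). Its first start, that of Sall4-204, lay 545 bp from the nearest region. That region, 660 bp at chr2:168766739-168767398, covered 3 starts of 4 transcripts between 0.742 and 0.914 kb into the gene, and the next of 1078 bp covered the start at 2.70 kb. A region of 204 bp lay 166 bp from the start of Sall4-207, 12.0 kb into the gene, but not over it. The widest region in the window, 1509 bp, was centered 48 bp from a start of Atp9a, and the widest distal region was 965 bp at −23.4 kb. No stretch over 9.87 kb was without a region. Sall4 had no octamer and no half-site. The STAT element was found once, in the region over its starts, and 120 bp of intron 1 around it are printed (chr2:168766739-168766858).
Sall4 STAT: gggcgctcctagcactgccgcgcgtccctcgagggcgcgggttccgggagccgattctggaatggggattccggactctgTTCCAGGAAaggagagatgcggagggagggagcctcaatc

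Related and unrelated regulators were read in the same way. Paralogs of the 7 genes, 14 in all, had a median percentile of 63.8 for region density in their length classes, with a range of 23.8 to 91.8. Esrrb (95.8) was denser than Esrra (82.5) and Esrrg (57.1), which are nuclear receptors active mainly in metabolic tissues. Nr5a2 (87.5) was denser than Nr5a1 (52.3), the regulator of steroid-producing organs. Zfp42 (91.1) lay above Yy1 (64.7) and Yy2 (49.4), and Prdm14 (94.8) above Prdm1 (62.8), a regulator of germ cells and plasma cells. Tbx3 (96.5) lay above Tbx4 (87.7), Tbx2 (84.3) and Tbx5 (23.8), regulators of limb and heart development. Sall4 (93.3) was close to Sall1 (91.8) and above Sall3 (42.2) and Sall2 (37.4). Tfcp2l1 was the exception, since Ubp1 (73.2) and Tfcp2 (72.2), which are expressed broadly, lay slightly above its 69.1. A region over a start was found for 12 of the 14, the exceptions being Tbx5 and Sall2.

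Other pluripotency factors spanned a wider range than the 7 genes. The 11 genes had a median percentile of 87.1, from 18.9 for Nr0b1 to 99.6 for Nanog. Pou5f1 lay at 98.5, Klf5 and Tcf7l1 at 98.0, Klf2 at 94.0 and Sox2 at 87.1. Below the median were also Gbx2 (83.4), Stat3 (71.8), Tfe3 (67.1) and Klf4 (48.0), the last near the middle of its length class. All 11 had a region over a start. The 10 regulators of other lineages had a median of 70.5, between 39.1 for Neurog2, a neurogenic factor, and 87.5 for Pdx1, a pancreatic factor, and all 10 had a region over a start as well. By the covered share of the window the lists lay closer together, with median percentiles of 78.2 for the 7 genes, 75.6 for the other pluripotency factors, 72.8 for the regulators of other lineages and 63.2 for the paralogs. On this measure Sall1 (96.1) lay above Sall4 (78.2), and Tfcp2 (82.9) above Tfcp2l1 (66.6). Genes on the X chromosome were also ranked among autosomal genes. They were Nr0b1 and Tfe3 of the other pluripotency factors, Yy2 of the paralogs and Gata1 of the regulators of other lineages. The lists were chosen with results of these data known and share no replicate error, so that the differences between their medians were not tested.

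**Figure D5:**
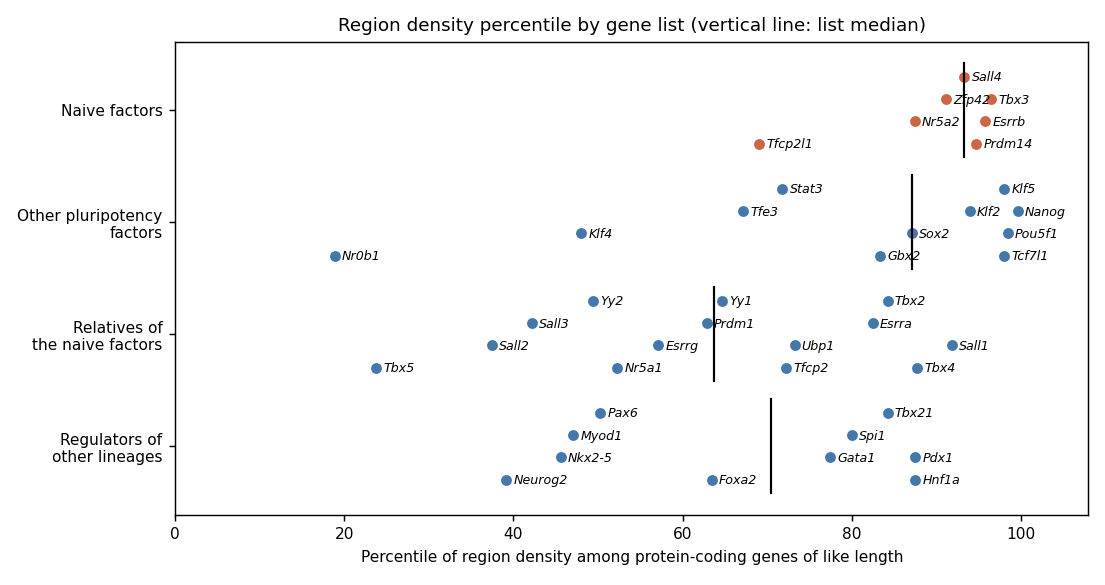
Percentile of region density among autosomal protein-coding genes of like length (x axis) for each gene of 4 lists (rows; points are genes, vertical lines are list medians). The medians are 93.3 for the 7 naive factors, 87.1 for 11 other pluripotency factors, 63.8 for 14 relatives and 70.5 for 10 regulators of other lineages, and the ranges overlap.

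The layout of regions along each gene was compared with that of genes of like length by dividing every window into 20 bins from upstream to downstream and correlating the numbers of regions per bin. The bins of 1 window are neighbors in the genome and many hold no region. The highest Pearson coefficients were 0.616 for Esrrb (with Mapre2, over 780 genes), 0.706 for Nr5a2 (Senp7), 0.720 for Tfcp2l1 (Nsmaf), 0.780 for Prdm14 (Larp7), 0.714 for Tbx3 (Popdc2), 0.764 for Zfp42 (Nat8f6) and 0.715 for Sall4 (Wdr3). Each is the highest of many coefficients, for Sall4 of 2497, and none of these genes belongs to a list named above.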

How the data were processed

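ATAC-seq libraries, 12 in all, came from ZHBTc4 and 2TS22C cells. The authors aligned reads with STAR 2.6.1c to mm10 (GRCm38), removed duplicates with Picard, kept the 19 autosomes with X and Y, ran MACS 2.1.1.20160309 for peaks and merged the peaks of all experiments with BEDTools. The deposited values are positions in bp, without a score or a value per sample. Whether peaks were called per replicate is not given in the sources used here. A filter on width is described in the methods, but 16 regions over 5 kb remain in the list, 0 of them at the 7 genes.

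From this list, regions were counted in gene windows, and percentiles were taken among genes of like length without the gene itself. Coordinates count from 1. Sequences come from the RefSeq GRCm38.p6 assembly and its promoter windows. Wilson intervals cover counting error over regions, which are not replicates. The genes, lists and elements were chosen with earlier results of these data known. One gene of the list of other pluripotency factors is not reported here and was left out of its median. Named are the 7 genes, the gene lists, genes in their windows, regions over a start, the widest distal region, regions with a composite match, and the 3 genes most alike in layout, of which the first is printed. The other regions named were chosen after their values were seen. Counting and element searches were tested on simulated data. Python 3.11.15, NumPy 2.4.6, SciPy 1.17.1 and Matplotlib 3.10.9 were used. Alternatives concerned narrow and wide regions, joining of neighbors, the flanks, the comparison genes, the set of starts and the sequence searched.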

Additional observations from a re-analysis of the deposited data

How the results depend on the processing

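The density percentile of the 7 genes had a median of 93.3 and depended on the window and the measure. It was 96.8 with flanks of 20 kb, 83.0 with flanks of 100 kb, 92.3 among genes with a region within 1 kb of a start, 96.5 with distal regions only, 98.0 among windows with a like number of starts, 91.3 without regions under 200 bp and 78.2 for the covered share of the window. Among windows alike in holding another protein-coding gene or none, a setting chosen after seeing the data, it was 94.6. It moved little with genes of 0.5 to 2 times the length (93.5) or with regions under 100 bp apart joined (92.7). Each of the 7 genes stayed above the 50th percentile in the 10 alternatives, the lowest being 54.8 for Zfp42 with flanks of 100 kb, and the cause of these shifts was not tested. Nr5a2 ranged from 70.5 to 93.9 and Tfcp2l1 from 66.1 to 87.2. The distal share of 84.7% became 89.7% with starts of protein-coding transcripts only and 91.6% with 1 start per gene, beside 88.9% and 87.6% of the list. The share of regions with an element fell to 16.3% in the central 200 bp of each region, beside 16.1% of the list, and the composite of Nr5a2 was lost there, among distal regions and with at most 1 mismatch. With matches outside soft-masked bases only, a setting also chosen after seeing the data, it was 25.1%, beside 22.2% of the list. Without regions under 200 bp the genes kept 162 of 203 regions, and Nr5a2 22 of 34. No paired analysis was possible because no library has values of its own in the merged list, and for the same reason no replicate could be left out in turn. Depth limits which regions were called in the first place and is unknown.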
